A study of Mus musculus with 6 samples.

Results

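The cells described here were keratin-high epithelial cells of day 6 in which Cited1 outnumbered Wnt6, in cultures of mouse embryonic stem cells (ESC) differentiated towards mesoderm. A cell was counted as a member when Krt8 and Krt18 together made up at least 0.2% of its UMIs (unique molecular identifiers, each counting 1 captured transcript) and it held more UMIs of Cited1 than of Wnt6. Of 3196 cells kept at day 6, 196 were members: 81 of 1546 parental cells and 115 of 1650 Oct1_cKO cells. The whole series held 7096 kept cells in 6 libraries. Parental ESC and ESC with a conditional knockout of Oct1, a POU-domain transcription factor whose gene is Pou2f1, were profiled cell by cell with droplet RNA sequencing as ESC and at days 3 and 6, with 1 library for each genotype and stage. Both day 6 groups were held for 2 days in N2B27 medium with Bmp4, and then held for 4 days in a DMEM-based medium with the Wnt enhancer Rspo3 and the BMP receptor inhibitor LDN-193189. The labels name no parental line, clone number or agent used to delete Oct1. A single library stood for each genotype, so no difference between genotypes has a replicate check, and all 95% intervals cover counting error only.

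Krt8 and Krt18 are the type II and type I keratins that pair into the intermediate filaments of simple, single-layered epithelia, and Krt7 and Krt19 are further simple-epithelium keratins. Cited1 encodes a transcriptional co-activator without a DNA-binding domain, which binds CBP and p300 and works with Smad4 and AP-2 factors. It is known from trophectoderm-derived cells, visceral endoderm, kidney progenitors and early mesoderm. Wnt6 encodes a secreted Wnt ligand of the surface ectoderm and other embryonic epithelia. Early epithelia of the embryo, among them surface ectoderm, amnion, trophectoderm and endoderm, share many of these genes, so no single one of them names a tissue.

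The day 6 libraries held 71970898 parental and 71281283 cKO UMIs, and 0 cell barcodes were shared between their kept cells. Member cells were deep: the median was 60971 UMIs per cell in the parental and 47407 in the cKO library, against 36219 and 30925 over all kept cells. Their depth also varied widely, since 19 parental and 38 cKO members held under 10000 UMIs while 32 and 44 held more than 2 times their library's median. Mitochondrial genes gave a median of 3.72% of UMIs in parental and 2.96% in cKO members. No doublet caller was run, and cells above 2 times the library median were left out in an alternative.

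The rule was met with little margin by part of the cells. Keratin shares of members had a median of 0.647% of UMIs in the parental and 0.450% in the cKO library, with 3 and 19 members between 0.2% and 0.25%. Just outside the limit, 10 parental and 10 cKO cells with more Cited1 than Wnt6 had keratin shares between 0.15% and 0.2%. The median member held 6 Cited1 UMIs in each library, and the highest held 175 and 277. Membership rested on a single Cited1 UMI in 23 parental and 16 cKO members, while 30 and 49 members held 10 or more. Wnt6 was not captured in 48 parental and 39 cKO members, so the cKO members more often held both transcripts.

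**Figure D1:**
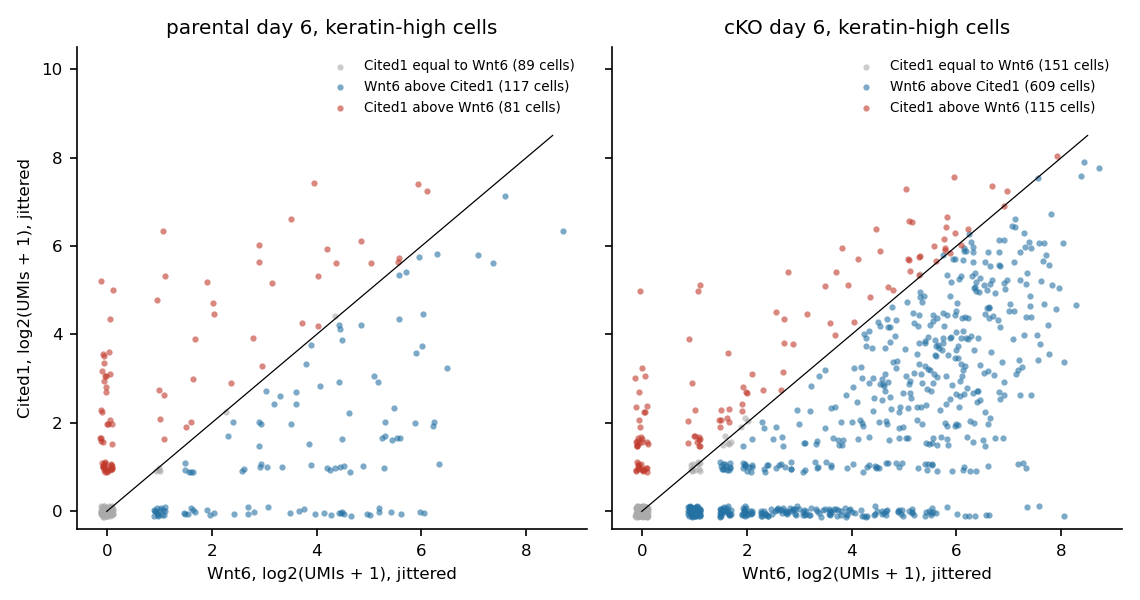
Cited1 UMIs (vertical axis) against Wnt6 UMIs (horizontal axis), each as log2(UMIs + 1) with jitter, in each keratin-high cell of the parental and the cKO day 6 library; the diagonal marks equal numbers. Members lie above the diagonal (81 parental and 115 cKO cells), and in the cKO library 609 cells lie below it.

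Neighbouring cells were grouped by the same measures. Keratin-high cells with more Wnt6 than Cited1 numbered 117 in the parental and 609 in the cKO library and are called Wnt6 keratin-high here. Another 89 and 151 keratin-high cells had equal numbers, of which 6 and 20 held any Cited1. Those cells were shallow, with medians of 4610 and 5354 UMIs. Cells with under 0.05% keratin UMIs, called low-keratin, numbered 1132 and 439. Transcripts of Cited1 were not confined to members: 58.1% of parental and 62.9% of cKO Wnt6 keratin-high cells and 26.8% and 27.6% of low-keratin cells held at least 1 Cited1 UMI. With each cell thinned to 10000 UMIs, leaving out shallower cells, Cited1 was found in 85.5% of 62 parental and 87% of 77 cKO members. The same share was 28% and 48.5% in Wnt6 keratin-high cells and 9.57% and 13.6% in low-keratin cells. Before thinning, low-keratin cells had medians of 35613 and 22688 UMIs and Wnt6 keratin-high cells of 50764 and 49064.

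The genes that chose the cells had the following levels, which are a description and no result. Levels are given as CPM, the UMIs of a gene summed over a group of cells per 1000000 summed UMIs. Cited1, on the X chromosome (chrX:102247381-102252181 in GRCm38), stood at 325 CPM in parental and 582 CPM in cKO members, at 111 and 184 in Wnt6 keratin-high cells and at 12.3 and 23.8 in low-keratin cells. Krt8 was at 3616 CPM in parental and 2845 in cKO members, and Krt18 at 4173 and 3216. Wnt6 still reached 87.9 CPM in parental and 346 in cKO members.

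Against low-keratin cells of the same library, the members were high in keratins, junction genes and other epithelial genes and low in mesodermal and neural genes. Genes were tested where the higher group reached 20 CPM in each library. Of 5781 such genes, 337 were at least 2-fold higher in members in both libraries (5.83%) and 213 were at least 2-fold lower in both (3.68%). Since the members were picked by their keratins, this contrast describes them and tests nothing. Among the highest ratios after Krt8 and Krt18 were those of Krt7, Tgm1, Vnn1, Mal and Ppl. Krt7 was at 227 CPM in parental and 349.8 CPM in cKO members, against 2.13 and 6.27 in low-keratin cells. Tgm1, the transglutaminase that cross-links cell envelopes, was at 52.6 and 94.5 CPM against 0.483 and 1.74. Both genes were high in members of both genotypes and near 0 in low-keratin cells, with no overlap between the intervals.

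Most tested junction genes were higher, but some, Cldn6 and Cldn7 among them, passed the 20 CPM limit only through members. All 14 tested members of an 18-gene list of tight junction and polarity genes were higher, with a median log2 ratio of members over low-keratin cells of 3.07 in the parental and 2.97 in the cKO library, where the medians over all tested genes were −0.02 and −0.01. Claudins, the strands of the tight junction, were among them: Cldn6 was at 226 CPM in parental and 221 in cKO members against 7.09 and 15.3 in low-keratin cells, and Cldn7 at 295 and 285 against 10.3 and 12.3. Of 13 tested genes for desmosomes and adherens junctions, 10 were higher, including Dsp (log2 ratio 4.42 parental and 2.76 cKO), Perp and Cdh1, the epithelial cadherin (4.08 and 3.75). A list of general epithelial genes had 11 of 12 tested higher, Krt8 among them, which served in the rule. Of 12 tested annexin and S100 genes, which bind membranes and calcium, 11 were higher too. S100a6 stood at 1059 and 1156 CPM in members against 36.3 and 161 in low-keratin cells. Among metabolic genes, the glucose transporters Slc2a1 and Slc2a3 were the 2 of 12 tested hypoxia and glycolysis genes that were higher, at 1.90 and 2.61 on the log2 scale in the parental and 3.47 and 3.37 in the cKO library.

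Among the lists with most genes lower in members were those of mesodermal and neural cells. All 5 tested of 17 neural genes and all 5 tested of 14 somite and presomitic genes were lower in both libraries. So were all 7 tested Hox genes of paralogue groups 1 to 9. The somite list and both Hox lists each summed to under 20 CPM in members of both libraries. Of the neural genes, Sox2 (37 parental and 30 cKO UMIs), Crabp1 (25 and 1), Tubb3 (21 and 3) and Fabp7 (6 and 8) were also under 20 CPM in members. All these genes could thus be tested only through low-keratin cells, which fixed the direction and left only the 2-fold size open. The whole neural list summed to 69.1 parental and 39.4 cKO CPM in members against 2098 and 263 in low-keratin cells. Crabp1, a retinoic acid binding protein of neural cells, was at 4.91 CPM in parental and 0.18 in cKO members against 1006 and 49.6 in low-keratin cells. Tcf15, a transcription factor of the paraxial mesoderm, was at 3.93 and 1.26 CPM against 105 and 221, and Meox1, a homeobox gene of the somites, at 1.77 and 1.08 against 88 and 152. Of 8 tested genes linked to the mesenchymal state, 6 were lower. Among these, Twist1, Zeb1, Zeb2 and Cdh2 were under 20 CPM in members of both libraries, so their direction was fixed in the same way. Vim, the mesenchymal intermediate filament, kept 319.6 and 230.3 CPM in members against 1240.3 and 1125. No gene of 13 tested for S phase or of 14 tested for mitosis was called in either direction.

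**Figure D2:**
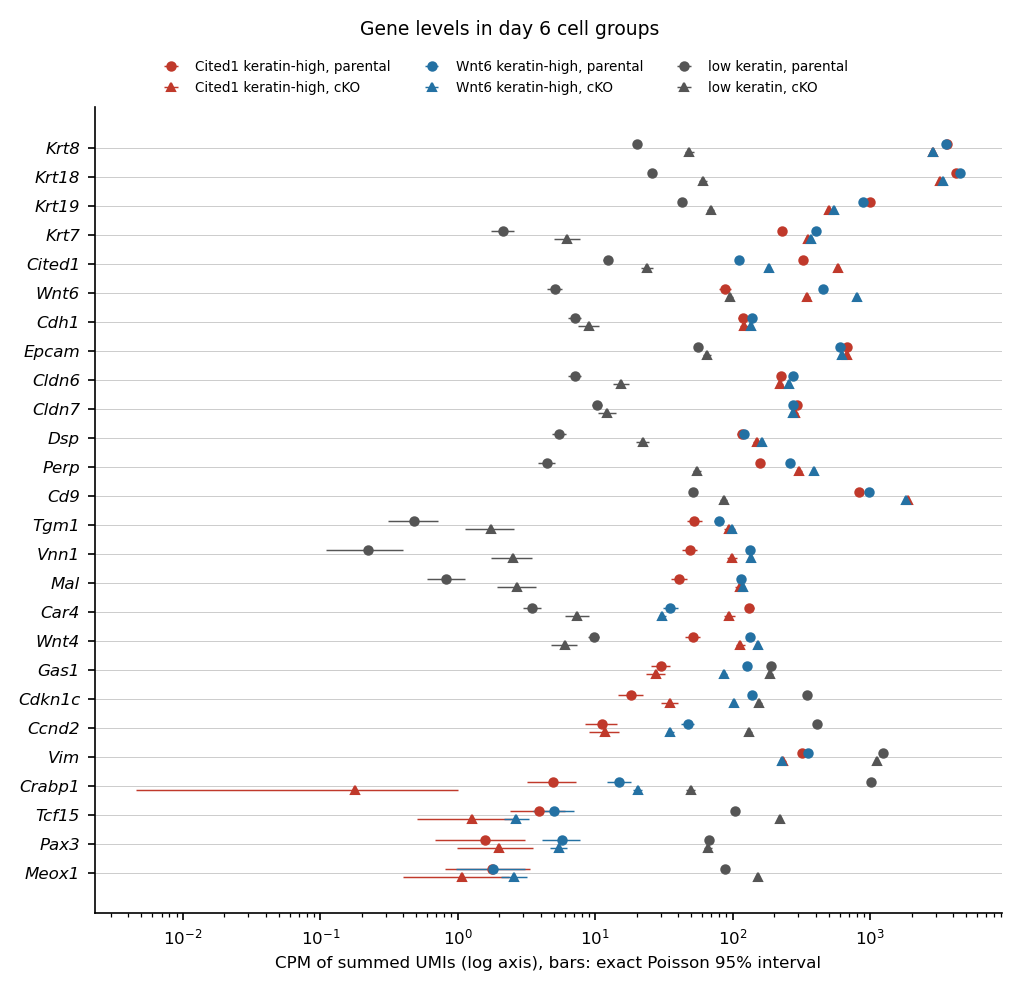
Levels of 26 genes, as CPM of summed UMIs on a log axis with exact Poisson 95% intervals, in Cited1 keratin-high (red), Wnt6 keratin-high (blue) and low-keratin cells (grey) of the parental (circles) and cKO (triangles) day 6 libraries. Keratins and junction genes lie together in both keratin-high groups and far above low-keratin cells, while Gas1, Cdkn1c and Ccnd2 lie lower in Cited1 keratin-high than in Wnt6 keratin-high cells.

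The markers named for these cells, Krt8, Krt18, Krt7 and Cited1, were all higher in members in both libraries. Krt8, Krt18 and Cited1 served in the rule, and Krt7 passed the 20 CPM limit only through members. No marker list tied the members to 1 tissue. Of 14 genes of stratified epithelia, Tgm1 was the one tested, and it passed the limit only through members. It was higher, at log2 ratios of 6.77 parental and 5.76 cKO. Tgm1 gave most of the list's summed 63.8 parental and 105 cKO CPM. The keratins of that list were nearly absent: Krt5 and Krt14 were at 0.196 and 0.196 CPM in parental and 0.18 and 0.36 CPM in cKO members, and Trp63, the transcription factor of stratified epithelia, had 0 UMIs in parental members and 0.72 CPM in cKO members. Of 21 surface ectoderm genes, 4 were tested against low-keratin cells and all 4 were higher, among them Wnt6, Wnt4 and Esrp1. Wnt6 served in the rule. The whole list summed to 43.3 CPM in parental low-keratin cells, so part of these genes passed the limit only through members. Of 24 trophoblast genes, 3 were tested and Wnt7b and Krt7 were higher, while the defining factors Cdx2 (6.87 and 9.90 CPM), Eomes (0.393 and 1.26) and Elf5 (0.982 and 0.36) were low in both libraries and 5 parental and 7 cKO list members were at 0. Of 11 amnion genes, Bambi and Wnt6 were tested and higher, and Isl1 was at 0 in both libraries. Of 18 visceral endoderm genes, 3 were tested and Cited1, which served in the rule, was higher, with list medians of 1.41 and 0.56 on the log2 scale. The list summed to 1674 parental and 2153 cKO CPM in members against 623 and 1239.9 in low-keratin cells. That sum includes Cited1, at 325 and 582 CPM in members, so the excess follows in part from the rule. Apoe, a secreted lipid carrier, was at 512 and 867 CPM in members against 288 and 723. In the same list Apoa1, Apob, Cubn and Hnf4a were at 0 in both libraries, and Sox17 and Foxa2 did not exceed 10.3 and 2.16 CPM. Summed over each list, trophoblast genes gave 549 parental and 709.9 cKO CPM in members against 812 and 775 in Wnt6 keratin-high cells. Surface ectoderm genes gave 453 and 795 against 1004 and 1391. That list holds Wnt6, which split these groups, so its lower sum in members follows in part from the rule. Of its 7 genes tested between these groups, only Wnt6 and Wnt10a were called lower in members, and none was called higher. Of the kidney list, Pax2, Pax8, Six2 and Ret were at 0 in members of both libraries although Cited1 and Wfdc2 were high. The cells are therefore called by their leading genes here.

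One parental cell stood apart within the members. All 51 Afp UMIs and all 27 Ttr UMIs of the 81 parental members came from this cell, which held 60936 UMIs in total, and it held 44 of their 47 Rbp4 UMIs. Afp and Ttr encode proteins that visceral endoderm and liver secrete. This cell held 6 Cited1 UMIs and met the keratin limit, and no cKO member held an Afp or Ttr UMI.

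Of the cell groups compared gene by gene, the Wnt6 keratin-high cells, which met the same keratin limit, were nearer to the members. The gap between members and Wnt6 keratin-high cells was small. Keratin-high cells with equal numbers and cells between the keratin limits were not compared by gene. Of 5451 genes tested, 2 were at least 2-fold higher in members in both libraries (0.0367%), Cited1 and Car4, and 8 were lower (0.147%), Wnt6, Wnt10a, Gas1, Cdkn1c, Ccnd2, Nr2f2, Meis2 and Zfp703. In single libraries the numbers were 22 higher and 47 lower of 5801 in the parental and 8 higher and 20 lower of 5716 in the cKO library. None of the 15 tested tight junction and polarity genes, 13 desmosome and adherens junction genes or 14 epithelial identity genes was called. Epcam, for example, was at 677 and 673 CPM in parental and cKO members and at 607 and 621 CPM in Wnt6 keratin-high cells. At the limit of 20 CPM, few genes other than Cited1 and Wnt6 themselves thus differed between the cells on either side of the rule.

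Car4, which encodes a membrane-anchored carbonic anhydrase and lies on chromosome 11 (chr11:84957786-84966044), was the only gene outside the rule called higher in both libraries at the 20 CPM limit. With a minimum of 5 CPM, 10 genes were called higher. Spink1, at 87.6 CPM in parental and 12.6 CPM in cKO members, fell under the limit of 20 CPM and is described further on. It stood at 132 CPM (95% interval 122 to 142) in parental members against 35.2 CPM in parental Wnt6 keratin-high cells, and at 94.5 CPM (95% interval 86.6 to 103) in cKO members against 30.7 CPM. UMIs of Car4 were found in 47 of 81 parental and 42 of 115 cKO members, and 1 cKO cell held 195 of the 525 cKO UMIs. The 3 highest cells held 35.2% of the parental and 57.1% of the cKO UMIs, a spread that the counting intervals do not include. With cells thinned to 10000 UMIs, 50.0% of parental and 23.4% of cKO members held a Car4 UMI, against 23% and 15.5% of Wnt6 keratin-high cells and 2.22% and 2.86% of low-keratin cells.

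The genes lower in members than in Wnt6 keratin-high cells included another Wnt ligand, cell cycle regulators and transcription factors. Wnt10a, which lies next to Wnt6 on chromosome 1, was at 12 and 22.9 CPM in parental and cKO members against 43.3 and 62 CPM in Wnt6 keratin-high cells. Cdkn1c, an imprinted inhibitor of cyclin-dependent kinases, was at 18.3 and 34.9 against 139 and 102. Gas1, a membrane protein first known from growth arrest, was at 29.8 and 27.5 against 126 and 87. Ccnd2, a D-type cyclin, had log2 ratios of −2.07 (95% interval −2.50 to −1.66) and −1.58 (95% interval −1.97 to −1.22). The homeobox gene Meis2 and the nuclear receptor gene Nr2f2 were lower as well, at −2.05 and −1.38 in the parental and −1.18 and −1.41 in the cKO library. Gas1, Cdkn1c, Ccnd2, Nr2f2 and Meis2 were all at least 2-fold higher in low-keratin cells than in members too, in both libraries. The 12 tested S phase genes had median log2 ratios of members over Wnt6 keratin-high cells of 0.62 in the parental and 0.40 in the cKO library, with none past 2-fold in both, and medians over all tested genes of 0.00 and 0.02.

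The share of members among kept cells was somewhat higher in the cKO library, by an amount that depended on the cell filter. Members made up 5.24% of parental cells (Clopper-Pearson 95% interval 4.18 to 6.47) and 6.97% of cKO cells (5.79 to 8.31), a difference of 1.73 percentage points (Newcombe 95% interval 0.06 to 3.40). Among cells with at least 2000 genes and no more than 5% mitochondrial UMIs the shares were 5.17% (3.91 to 6.69) and 9.57% (7.66 to 11.8), in cells thinned to 10000 UMIs 3.83% (2.81 to 5.09) and 6.32% (4.95 to 7.93), and with a keratin minimum of 0.4% they were 4.14% and 4.18%. Keratin-high cells as a whole made up 18.6% of parental and 53% of cKO cells. Members were thus 28.2% (23.1 to 33.8) of parental but 13.1% (11 to 15.6) of cKO keratin-high cells, a difference of −15.1 points (−20.9 to −9.63). The larger cKO epithelium was mostly of the Wnt6 keratin-high kind. The counts come from 1 library per genotype, and the share of shallow cells also differed, since 38 of 115 cKO and 19 of 81 parental members held under 10000 UMIs; its part in the shares was not tested.

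Within the members, cKO and parental cells shared the epithelial genes and differed in a smaller set. Of 5864 genes tested, 80 were at least 2-fold higher in cKO members (1.36%) and 82 at least 2-fold lower (1.4%), with a median log2 ratio of 0.03 over all tested genes. The same libraries differed in 47 higher (0.807%) and 46 lower genes (0.79%) of 5824 within Wnt6 keratin-high cells and in 148 (2.46%) and 161 (2.67%) of 6027 within low-keratin cells; these groups hold more cells, so the numbers are not set against each other. Without the members above 2 times the library median the numbers in members were 151 higher and 227 lower, and with each member given equal weight 37.8% of the called genes were higher in place of 49.4%. None of the 15 tested tight junction and polarity genes or 13 desmosome and adherens junction genes was called, and of 13 epithelial identity genes Cd9, a tetraspanin, was higher in the cKO library (1878 against 824 CPM). Pou2f1, which encodes Oct1, was at 21.4 CPM (95% interval 17.6 to 25.8) in parental members, in 41 of 81 cells, and at 10.6 CPM (95% interval 8.09 to 13.7) in cKO members, in 34 of 115 cells. Its log2 ratio of cKO over parental was −1.01 in members, −0.62 in Wnt6 keratin-high and −0.79 in low-keratin cells. The tags come from the 5′ ends of transcripts and the labels do not give the deleted exons, so remaining tags do not measure the deletion.

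Tfap2a, which encodes AP-2 alpha, a transcription factor of surface ectoderm and neural crest, had the highest genotype ratio among the ranked genes. It gave 2 UMIs in 2 of 81 parental members (0.393 CPM) and 112 UMIs in 25 of 115 cKO members (20.2 CPM), a log2 ratio of 5.68 (95% interval 3.80 to 8.75). The Wnt6 keratin-high cells held 5.16 parental and 24.1 cKO CPM, and low-keratin cells 2.96 and 2.86. With cells thinned to 10000 UMIs, 0 of 62 parental members held a Tfap2a UMI, which allows a share of up to 4.84% by a floor of 3 counts and 5.78% by the Clopper-Pearson interval, against 10.4% of 77 cKO members and 2.89% of parental and 2.14% of cKO low-keratin cells. Tfap2c, which encodes AP-2 gamma, went the other way at 23.6 parental and 13.9 cKO CPM, short of 2-fold. Of the cKO UMIs of Tfap2a, 42% came from 3 cells.

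Because AP-2 factors are known partners of Cited proteins, the promoters of the genes that define these cells were read for the AP-2 site GCCNNNGGC, which is the same on both strands. The 250 bases before a RefSeq transcription start (GRCm38.p6) are printed from 5′ to 3′ along the gene's strand, with matches in capitals. They lie at chr15:102027966-102028215, plus strand for Krt18, at chr15:101412153-101412402, plus strand for Krt7, at chrX:102250777-102251026, minus strand for 1 of 3 Cited1 starts and at chr1:74771642-74771891, plus strand for Wnt6.
Krt18: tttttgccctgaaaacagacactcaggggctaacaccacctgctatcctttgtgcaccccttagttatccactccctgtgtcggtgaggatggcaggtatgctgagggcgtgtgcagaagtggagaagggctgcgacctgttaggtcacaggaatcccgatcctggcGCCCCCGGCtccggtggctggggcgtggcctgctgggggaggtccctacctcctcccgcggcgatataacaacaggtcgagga
Krt7: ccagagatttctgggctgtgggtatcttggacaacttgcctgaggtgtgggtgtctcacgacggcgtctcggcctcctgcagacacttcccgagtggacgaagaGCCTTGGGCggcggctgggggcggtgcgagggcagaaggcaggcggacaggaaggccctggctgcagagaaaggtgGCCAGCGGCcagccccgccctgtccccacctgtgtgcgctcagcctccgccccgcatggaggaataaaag
Cited1: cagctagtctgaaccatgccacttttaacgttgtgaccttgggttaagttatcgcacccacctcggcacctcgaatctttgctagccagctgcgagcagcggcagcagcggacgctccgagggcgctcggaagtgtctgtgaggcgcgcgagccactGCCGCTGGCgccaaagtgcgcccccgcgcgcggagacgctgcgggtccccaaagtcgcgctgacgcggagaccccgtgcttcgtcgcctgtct
Wnt6: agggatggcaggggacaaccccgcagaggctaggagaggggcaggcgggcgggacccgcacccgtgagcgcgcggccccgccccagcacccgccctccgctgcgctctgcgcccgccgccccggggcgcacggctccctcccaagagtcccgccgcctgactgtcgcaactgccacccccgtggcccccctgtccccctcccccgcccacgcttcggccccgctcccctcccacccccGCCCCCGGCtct
Krt7 held 2 matches and the other three held 1 each, while neither the Krt8 promoter nor the other Cited1 starts held one. The site stood in 13.7% of all 32851 RefSeq promoters of this length and in 21.2% of 5777 promoters of genes tested against low-keratin cells. Among promoters of the genes higher in members the share was 21.1%, and among 77 promoters of genes higher in cKO members it was 29.9% (23 promoters). In the opposite sets it was 23.5% for genes lower in members and 22.1% for genes lower in cKO members. A match of letters is a description and not a bound site.

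Other genes higher in cKO members fell into those spread over many cells and those held by few. Ass1, the argininosuccinate synthase of arginine synthesis, was found in 32 of 81 parental and 76 of 115 cKO members, at 19.4 CPM (95% interval 15.8 to 23.7) and 124 CPM (95% interval 115 to 134). Gnai1, an inhibitory G protein alpha subunit, was found in 34 and 67 members at 16.3 and 89.5 CPM. Atf5, a stress-responsive transcription factor, was at 8.25 and 44.8 CPM in 27 and 52 cells, and Tchh, the trichohyalin of hair follicles, at 27.5 and 97.6 CPM in 39 and 67. These 4 genes had log2 ratios of 0.93, 1.88, 1.59 and 1.65 in Wnt6 keratin-high cells of the same libraries. The 3 highest cKO members held between 18.8% (Tchh) and 41.4% (Atf5) of their cKO UMIs. Phlda2, an imprinted gene that limits placental growth, was at 8.05 and 40.1 CPM and Esx1, an X-linked homeobox gene of extraembryonic tissue, at 6.09 and 22.1 CPM, each in 33 of 115 cKO members. These were less evenly spread, with 64.1% and 43.1% of cKO UMIs in 3 cells, and in thinned cells the log2 ratio of Esx1 came to −0.62. By contrast, Nupr1, a stress-induced nuclear protein gene at 11.2 and 142 CPM, rested on 1 cKO cell with 503 of 786 UMIs and 1 parental cell with 54 of 57.

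Genes lower in cKO members showed the same contrast. Crlf2, a cytokine receptor subunit, was found in 61 of 81 parental and 14 of 115 cKO members at 39.3 CPM (95% interval 34 to 45.1) and 5.94 CPM (95% interval 4.09 to 8.34), and its log2 ratio of −2.72 stood beside −2.68 in Wnt6 keratin-high and −2.46 in low-keratin cells. The histone gene Hist3h2ba, which belongs to a family of near-identical copies, was found in 51 parental and 7 cKO members and had ratios of −4.58, −3.34 and −3.74 in the same order. Pcbd1, an enzyme of pterin recycling, had ratios of −1.96, −1.96 and −2.15. These 3 genes were lower in the cKO library in members, in Wnt6 keratin-high cells and in low-keratin cells. Cyct, the testis form of cytochrome c, gave 140 UMIs in 18 parental members (27.5 CPM) and 0 in cKO members, a log2 ratio of at most −5.67 against a floor of 3 counts over the group. All of these UMIs lay in parental members with at least 11% of UMIs from chromosome 11, a split described further on, and Cyct had 0 UMIs in the remaining members of both libraries. Isg15 and Gbp2, both induced by interferon, were at 145 and 70.3 CPM in parental and 37.4 and 14.9 CPM in cKO members. The highest parental cell of each gene held 158 of 738 Isg15 and 140 of 358 Gbp2 UMIs, and the ratios were −1.78 and −1.52 in Wnt6 keratin-high cells.

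Several of the lowest ratios were carried by few cells. Acta2, smooth muscle actin, was at 560.3 CPM in parental and 128 CPM in cKO members, and 3 of 81 parental cells held 78.1% of its UMIs. The same share was 91.4% for Spp1 (osteopontin), 84.2% for Ankrd1 (a target of YAP) and 81.2% for Sprr2a3, a cornified envelope gene with near-identical copies. For Crlf2, Hist3h2ba and Pcbd1 it was 15%, 22.3% and 20.4%. Without the deepest members, above 2 times the library median, the log2 ratio of Spp1 came to 1.51 and that of Sprr2a3 to 0.62. Acta2 and Col1a1 were the 2 of 4 tested mesenchyme genes that were lower in cKO members, and the 13 genes of that list summed to 1721 CPM in parental and 857 CPM in cKO members, to 2439 and 1101 CPM in Wnt6 keratin-high cells and to 1648 and 1959 CPM in low-keratin cells. Within the list 2 genes were at 0 in parental and 1 in cKO members, and the part of mesenchymal transcripts in the other differences was not tested. Counting intervals do not include such spread between cells.

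Gene lists gave few further genotype differences within the members. Of 8 tested surface ectoderm genes Tfap2a, Wnt6 and Wnt4 were higher in cKO members, with a list median log2 ratio of 0.74 against 0.03 over all tested genes; Wnt6 served in the rule. Wnt4 was at 51.2 parental and 113 cKO CPM, and Wnt6 was captured in 33 of 81 parental and 76 of 115 cKO members. Of 11 tested p53 targets none was called and the median was 0.54. Of 8 tested integrated stress genes Ddit3 was higher (13.9 parental and 41.6 cKO CPM), with a median of 0.62. Of 13 tested S phase genes Cdc6, which lies on chromosome 11, was lower (38.3 and 15.7 CPM), with a median of −0.33, and none of 14 mitosis genes was called. Of 9 tested imprinted genes Phlda2 and Mest were higher and Dlk1 was lower. Dlk1 was found in 4 parental and 9 cKO members, and 1 parental cell held 86 of 115 parental UMIs, against 28 UMIs in all cKO members. Of 5 tested BMP targets, a pathway blocked in these cultures by LDN-193189, the inhibitory Smad gene Smad7 was higher (16.9 and 39.8 CPM). Of 4 tested Wnt targets Axin2, a feedback inhibitor of the pathway, was higher (9.42 and 21.1 CPM) and the transcription factor gene Tcf7 was lower (20.4 and 8.82 CPM).

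**Figure D3:**
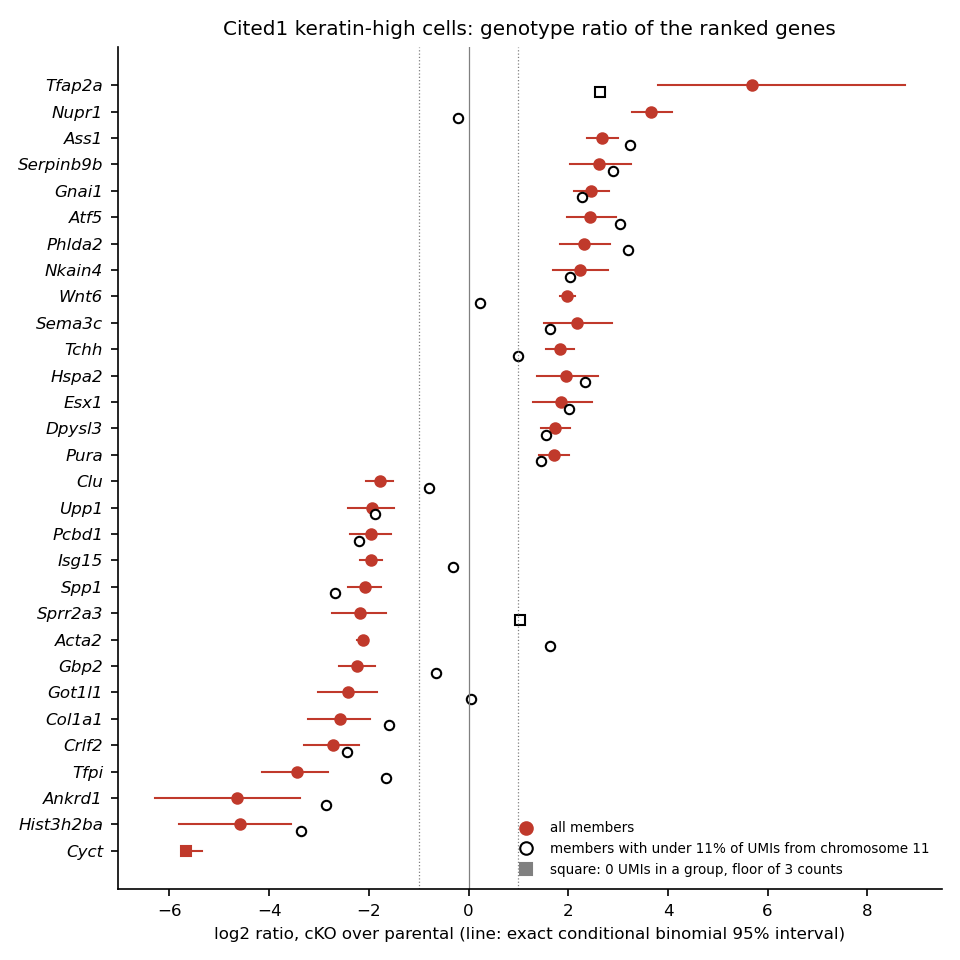
Log2 ratio of cKO over parental members for the 15 highest and 15 lowest ranked genes (red, with exact conditional binomial 95% intervals) and the same ratio in members with under 11% of UMIs from chromosome 11 (open symbols); squares rest on the floor of 3 counts. Ass1, Gnai1, Atf5, Phlda2, Crlf2, Pcbd1 and Hist3h2ba keep their side of 0, while Nupr1, Got1l1, Acta2 and Sprr2a3 cross it.

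The genotype differences were uneven along the genome. On chromosome 11, 477 of 533 tested genes had a log2 ratio of cKO over parental below 0 in members, with a median of −0.40, and 32 of the 82 lower genes lay there. On chromosome 16 the median was −0.33 with 181 of 210 genes below 0. In Wnt6 keratin-high cells the medians of chromosomes 11 and 16 were −0.20 and −0.14, and in low-keratin cells −0.22 and −0.03. Chromosome 8 was near 0 in members (0.01) but at −0.10 in Wnt6 keratin-high and −0.23 in low-keratin cells. The 4 tested genes of chromosome Y, which the plot of medians leaves out, were all above 0, with medians of 1.29 in members, 1.56 in Wnt6 keratin-high and 1.25 in low-keratin cells. In members chromosome 11 gave 12.5% of parental and 9.50% of cKO UMIs. Krt19, a simple-epithelium keratin of chromosome 11, was at 998 CPM in parental and 504 CPM in cKO members, while Krt7 of chromosome 15 was at 227 and 349.8.

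**Figure D4:**
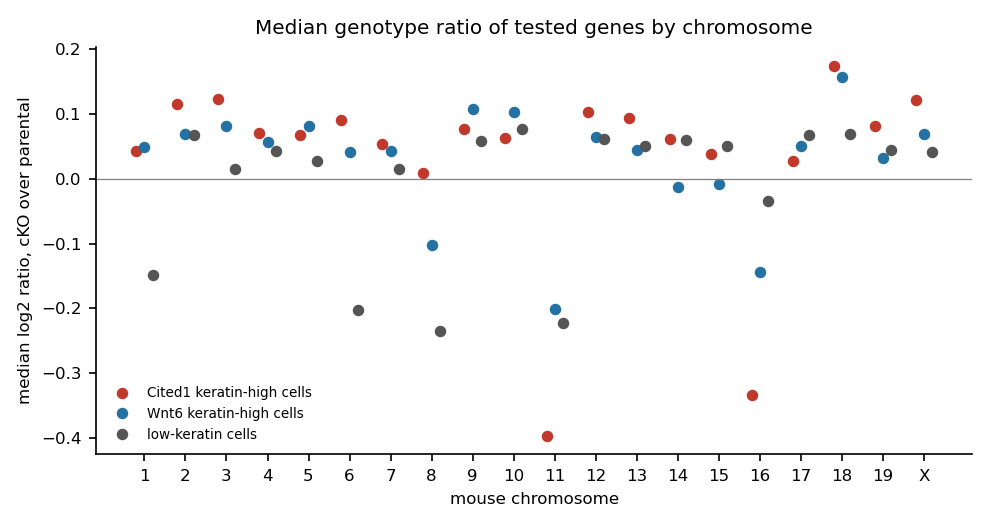
Median log2 ratio of cKO over parental for the tested genes of each mouse chromosome other than Y, in Cited1 keratin-high (red), Wnt6 keratin-high (blue) and low-keratin cells (grey) of day 6. Chromosomes 11 and 16 lie lowest in the red series, at −0.40 and −0.33.

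Per cell, the chromosome 11 share fell into separate ranges in the parental library. A limit of 11%, set after the data were seen, was reached by 66 of 81 parental members (81.5%, Clopper-Pearson 95% interval 71.3 to 89.2) and by 7 of 115 cKO members (6.09%, 2.48 to 12.1). In the parental library the same limit was reached by 42.7% of Wnt6 keratin-high and 52.6% of low-keratin cells, and in the cKO library by 2.30% and 15.3%. Parental members were therefore more often of the chromosome 11-high kind than parental Wnt6 keratin-high or low-keratin cells, and their intervals did not overlap with either. The trait was not particular to members. Parental keratin-high cells with equal numbers of Cited1 and Wnt6 reached the limit in 68.5% (57.8 to 78.0). Parental cells with keratin shares between the low-keratin and keratin-high limits reached it in 67.7% (58.8 to 75.7). Both intervals overlapped that of the members. The measure gives transcripts and not DNA copies, and its part in the genotype differences was not tested beyond the values that follow.

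**Figure D5:**
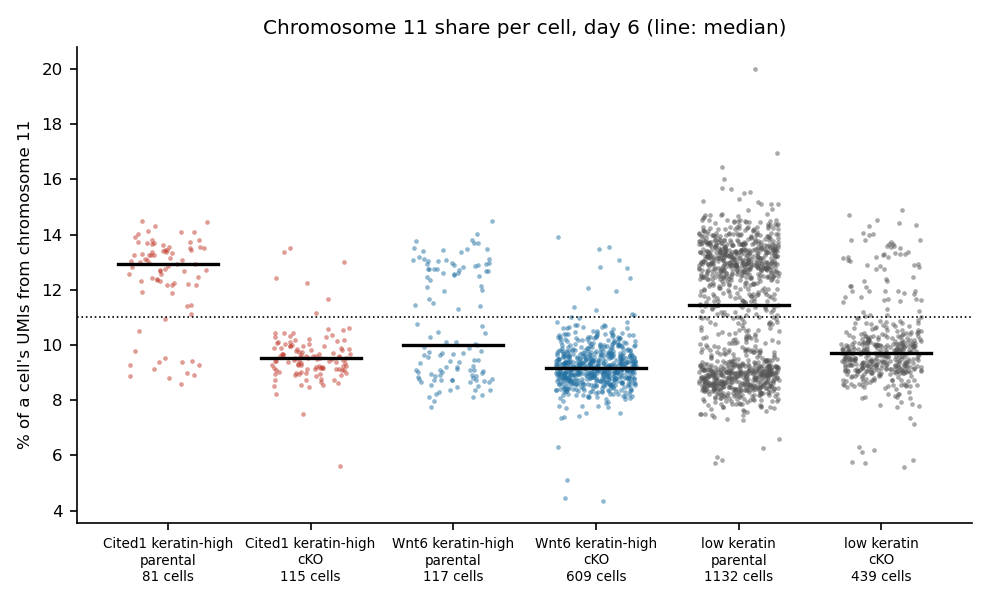
Share of each cell's UMIs from genes of chromosome 11 (vertical axis, %) in Cited1 keratin-high, Wnt6 keratin-high and low-keratin cells of the parental and cKO day 6 libraries; bars are medians and the dotted line is 11%. Parental members lie mostly near 13% (median 12.9%) and cKO members near 9.5% (median 9.52%).

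With members at 11% or above left out, 15 parental and 108 cKO cells remained. In these cells the median log2 ratios of chromosomes 11 and 16 were 0.07 and 0.07, and 165 genes were higher and 72 lower in cKO members, of which 35 and 19 were also called over all members. Ass1 (3.24), Gnai1 (2.27), Atf5 (3.05) and Phlda2 (3.19) stayed higher in the cKO library on the log2 scale, and Tfap2a had 0 UMIs in the 15 parental and 112 in the 108 cKO cells. Crlf2 (−2.45), Pcbd1 (−2.19), Hist3h2ba (−3.37), Upp1 (−1.88) and Spp1 (−2.68) stayed at least 2-fold lower, as did Col1a1 (−1.59), Tfpi (−1.66) and Ankrd1 (−2.86, with 6 parental and 5 cKO UMIs). Clu (−0.80), Gbp2 (−0.65) and Isg15 (−0.32) no longer reached 2-fold, Got1l1 came to 0.05, and Cyct had 0 UMIs in both libraries. Wnt6 came to 0.24, at 306 parental and 360.4 cKO CPM. Acta2 turned to 1.63 and Nupr1 to −0.20, so neither direction held in these cells. With 15 parental cells and 882505 parental UMIs, these values rest on few cells.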

How the data were processed

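Each of 6 libraries (5′ tags, 10x Genomics) held 1 genotype at 1 stage. The authors deposited whole-number UMI counts per gene and barcode, made with Cell Ranger and mm10 per the submitters' processing notes and with software version 3.1.0 per the file headers. Gene positions came from the mouse annotation of that build, in which 31011 of 31053 gene IDs were found. Whether the authors filtered or normalised further is not given in the sources used here.

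Barcodes with at least 1000 genes and at most 10% of UMIs from mitochondrial genes were kept, and no doublet caller was run. UMIs were summed per library and cell group and divided by the group's total (CPM, counts per 1000000), with exact Poisson 95% intervals. Log2 ratios carry exact conditional binomial intervals, shares Clopper-Pearson intervals. A gene was tested with at least 20 CPM in the higher group and called at 2-fold or more; between cell groups this had to hold in both libraries. With 1 library per genotype no p-value was computed. A gene with 0 counts in a group was given a floor of 3 counts over that group. The rule for named genes took per comparison the 15 highest and 15 lowest called genes found in at least 10% of cells, without ribosomal, mitochondrial and unnamed genes, and up to 4 genes per list; markers at or near 0, Tfap2c, Krt19, Epcam and Wfdc2 were named after their values were seen. The member cells, the 47 gene lists and these rules were chosen with earlier results of these data known. One gene the rule would name is not reported here. Alternatives used TMM factors (edgeR 4.0.16, R 4.3.3), median-of-ratios factors, other limits, cells thinned to 10000 UMIs and equal weight per cell. Everything else ran in Python 3.11.15 (scipy 1.17.1, numpy 2.4.6, pandas 2.3.3). The calls were tried on simulated counts with Poisson error only. That simulation held no spread between cells, so it cannot show how often few cells carry a call.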

Additional observations from a re-analysis of the deposited data

Results flagged for a closer look

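Some genes differed between genotypes in opposite directions in Cited1 keratin-high and in low-keratin cells. The log2 ratio of cKO over parental was 1.40 in members and −1.39 in low-keratin cells for Igfbp2, an IGF-binding protein, −1.78 and 1.02 for Clu (clusterin), −1.77 and 1.57 for Psmb8, a subunit of the immunoproteasome, and −1.83 and 1.08 for Pkdcc, a secreted protein kinase. Psmb8 also changed sides between the libraries when members were set against low-keratin cells, at 2.09 in the parental and −1.25 in the cKO library, and so did Dpysl3, a cytoskeletal protein of growing axons, at −1.56 and 1.03. With 1 library per genotype these differences were not tested.

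The rule was also met at the stages that the comparisons did not use. It held for 1.003% of parental ESC (14 of 1396), 3.02% of cKO ESC (16 of 530), 0.63% of parental day 3 cells (6 of 948) and 0.68% of cKO day 3 cells (7 of 1026), which are above the share that a count of 0 allows in each library.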

How the results depend on the processing

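The share of kept cells that met the rule moved with its limits. It was 5.17% parental and 9.57% cKO with limits of 2000 genes and 5% mitochondrial UMIs, 6.66% parental and 8.36% cKO with a keratin minimum of 0.1%, 4.14% and 4.18% with 0.4%, 2.91% and 3.58% where Cited1 had to exceed Wnt6 by 3 UMIs, and 3.90% and 5.68% without barcodes above 2 times the library median. With cells thinned to 10000 UMIs the shares were 3.83% and 6.32%. The numbers of genes higher and lower in cKO members were 151 and 227 without barcodes above 2 times the median, 319 and 342 in thinned cells, 258 and 298 with a minimum of 5 CPM and 790 and 965 with none. With equal weight per cell 191 were lower, without genes of chromosomes 11 and 16 45 were lower, and in cells under 11% chromosome 11 UMIs 165 were higher. Against low-keratin cells 621 genes were higher and 593 lower with a minimum of 5 CPM, and 1044 and 1236 with none. Against Wnt6 keratin-high cells the numbers were 5 and 23 without barcodes above 2 times the median, 5 and 14 with equal weight, 10 and 25 with a minimum of 5 CPM and 91 and 145 with none, with 4 higher in thinned cells, 4 at a keratin minimum of 0.4% and 1 without chromosomes 11 and 16. A lower minimum admits more genes by construction, and otherwise the cause was not tested.

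Of 1450 readings of 69 named genes under 14 settings, 1442 kept their direction, but part of these could not have changed it. A minimum of 5 CPM, no minimum and leaving out chromosomes 11 and 16 leave each ratio as it was. Their 111, 111 and 88 readings were thus fixed in advance. TMM and median-of-ratios factors lay between 0.975 and 1.05, too near 1 to reverse ratios chosen for being at least 2-fold. Subtracting the median log2 ratio of a gene's chromosome, between −0.40 and 0.17, could not reverse its 31 readings either. That setting was added after the data were seen. Readings of Krt8, Krt18, Cited1 and Wnt6 between cell groups concern genes that served in the rule. The 8 readings that changed direction were genotype ratios, given here as log2. Without barcodes above 2 times the median they were −0.12 for Serpinb9b, 0.62 for Sprr2a3 and 1.51 for Spp1. In thinned cells the ratio of Esx1 was −0.62. In cells under 11% chromosome 11 UMIs they were −0.20 for Nupr1, 0.051 for Got1l1, 1.63 for Acta2 and 1.03 for Sprr2a3. Of all called genotype genes 49.4% were higher in cKO members, against 39.9% without barcodes above 2 times the median, 37.8% with equal weight, 63.4% without chromosomes 11 and 16 and 69.6% under 11% chromosome 11 UMIs. The settings for chromosomes 11 and 16 were chosen after seeing the data. No paired analysis was possible because each group held 1 library, and depth limits what can be said of genes under about 20 CPM and of members under 10000 UMIs.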

Other observations

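Spink1, a secreted trypsin inhibitor, was found in few members. It stood at 87.6 CPM in parental and 12.6 CPM in cKO members, against 0 and 0.0861 CPM in Wnt6 keratin-high cells. The parental cell that held all Afp UMIs also held 180 of the 446 Spink1 UMIs.

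At the ESC stage the few cells that met the rule had more Cdx2 and less Car4 than the members of day 6. The parental and cKO ESC that met it also differed from each other, at 715 and 50.0 CPM of H19 and 68.7 and 3.79 CPM of Tfap2c. Levels in other ESC are not given here, so none of these genes is called particular to these cells. Cdx2, the homeobox gene of trophectoderm and posterior mesoderm, was at 43.7 CPM in the 14 parental and 43.9 CPM in the 16 cKO ESC, against 6.87 and 9.90 CPM in the parental and cKO members of day 6. Car4 was at 2.08 CPM in the parental ESC that met the rule and had no UMI in those of the cKO library, and Krt7 was at 84.3 and 112 CPM.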
